A study of Mus musculus with 14 samples.

Results

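The genes described here encode the proteasome, the protease complex that degrades ubiquitin-tagged proteins, and its regulators, measured in subcutaneous white fat of exercised and sedentary mice. Members were the genes whose only platform symbol starts with Psma, Psmb, Psmc, Psmd, Psme, Psmf or Psmg followed by a digit, with the probe set of highest mean signal standing for each gene. This gave 49 genes, represented on the array by 103 probe sets, of 18193 genes with a probe set of 1 symbol. Of these 49, 47 were bright enough to be tested, among 12945 genes in all. Psma8 and Psmb11, the testis and thymus forms of an alpha and a beta subunit, did not pass. Psma8 reached a signal of at most 188.6 on exercised and 150.7 on sedentary arrays, and Psmb11 of at most 212.7 on exercised and 313.8 on sedentary arrays. Psmc3ip and Psme3ip1 have matching names but encode binding partners, not proteasome subunits, and are kept apart. The only probe set of Psme2, which encodes PA28beta, is shared with Psme2b, so it was no member and has no value here.

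The study used male C57BL/6 mice aged 12 weeks. One group was exercised, housed in cages with running wheels for 11 days, and the other was sedentary over the same 11 days. RNA from whole subcutaneous white fat was measured on 14 Affymetrix arrays, 7 from exercised and 7 from sedentary mice, with the 3' probe sets of that platform. The sources used here name no genetic modification, and they leave unsaid whether every array stands for its own mouse, so the p-values here reflect only the spread among the arrays, which may be technical.

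In the proteasome, outer rings of alpha subunits and inner rings of beta subunits form the barrel called the 20S core, and only the beta subunits encoded by Psmb5, Psmb6 and Psmb7 cut protein chains. The 19S cap binds ubiquitin chains, removes them and feeds the unfolded chain into the barrel with a ring of ATPases (Psmc genes). In immune cells, and in other cells exposed to interferon gamma, newly built barrels carry Psmb8, Psmb9 and Psmb10 in place of Psmb5, Psmb6 and Psmb7, and this immunoproteasome yields peptides for MHC class I. Nfe2l1 (NRF1) raises transcription of subunit genes when proteasome capacity is short, and in brown fat it is known to support proteasome capacity during cold exposure.

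Promoters of 3 catalytic subunits that the results below contrast are shown, each as the 250 bases before the start site, read 5′ to 3′ on the gene's strand, from RefSeq on GRCm38.p6. Psmb5 lies at chr14:54617996-54618245 (minus strand), Psmb8 at chr17:34197945-34198194 (plus strand) and Psmb9 at chr17:34187331-34187580 (minus strand), in the MHC region. Capitals mark a match to TGACNNNGC, the core of the element bound by NRF1 and NRF2, in Psmb5, to TTCNNNGAA, the core that STAT factors bind, in Psmb8, and to CCAAT on the opposite strand (ATTGG) in Psmb9.
Psmb5: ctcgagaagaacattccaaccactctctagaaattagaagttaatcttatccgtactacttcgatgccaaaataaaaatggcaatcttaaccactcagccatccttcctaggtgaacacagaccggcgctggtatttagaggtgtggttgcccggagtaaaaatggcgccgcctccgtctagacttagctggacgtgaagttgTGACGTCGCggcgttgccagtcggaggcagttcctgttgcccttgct
Psmb8: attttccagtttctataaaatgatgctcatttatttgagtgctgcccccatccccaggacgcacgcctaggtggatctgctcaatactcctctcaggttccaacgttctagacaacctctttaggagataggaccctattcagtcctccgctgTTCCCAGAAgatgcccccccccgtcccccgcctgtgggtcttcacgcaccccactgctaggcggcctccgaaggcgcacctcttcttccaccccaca
Psmb9: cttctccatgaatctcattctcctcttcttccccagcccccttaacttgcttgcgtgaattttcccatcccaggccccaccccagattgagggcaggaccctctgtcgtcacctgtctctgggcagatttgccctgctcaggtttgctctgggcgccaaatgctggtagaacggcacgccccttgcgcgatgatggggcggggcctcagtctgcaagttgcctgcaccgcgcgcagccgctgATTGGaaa
The match lay 47 to 39 bases before the start site in Psmb5, 97 to 89 bases before it in Psmb8 and 8 to 4 bases before it in Psmb9. Over both strands of such 250-base windows, TGACNNNGC was found in 5 of 44 windows of 41 members (11.4%) and in 10.2% of all 32851 promoter windows. CCAAT was found in 16 member windows (36.4%) and in 33.8% of all, and TTCNNNGAA in 2 (4.55%) and in 7.02% of all. TGACNNNGC stood in the windows of Psmb5, Psmb6, Psmc6, Psmd9 and Psmd12, and TTCNNNGAA in those of Psmb8 and Psmg1. No motif overlapped another in the printed promoters, and a match is a description of letters only. Psmb9 shares its promoter with Tap1, the peptide transporter gene on the other strand: their start sites were 226 bases apart, and their RefSeq windows, which also run past the start site, had 275 of 300 bases in common.

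Adipoq, the adiponectin gene that defines adipocytes, gave signals of 55513.8 to 69118.5 on exercised arrays and of 48832.5 to 68456.5 on sedentary arrays. Of 9 mature adipocyte markers tested, 8 had a positive difference (median 0.19) and 1 was called higher by limma, from Lep at -1.41 to Slc2a4 at 0.77. Over all genes 45.0% had a positive difference and 4.0% were called higher. Brown and beige adipocyte markers separated the groups: 6 of 9 were called higher by limma (median 2.21), and their average was 11.74 to 13.24 on exercised arrays and 8.94 to 11.67 on sedentary arrays, with summed signals of 54700 to 182000 on exercised and 5250 to 54600 on sedentary arrays. Ucp1, the uncoupling protein of brown fat, gave 10273.2 to 51866.5 on exercised and 67.3 to 9989.0 on sedentary arrays, a log2 difference of 4.67 (SE 0.69; adjusted p = 0.00229). The part of this change of fat cell markers in the proteasome differences below was not tested. Arrays also differed in markers of other cells. The 20 skeletal muscle markers averaged between 8.78 and 15.25 on the log2 scale on exercised arrays and between 8.47 and 13.16 on sedentary arrays, and the 14 leukocyte and lymphocyte markers averaged between 9.37 and 12.59 on exercised and between 9.72 and 13.29 on sedentary arrays. Sedentary array 5 stood apart with the highest leukocyte, macrophage and interferon-response averages and the lowest adipocyte average, and sedentary array 7 with a leukocyte average of 9.72. Values of several members and of the pair ratios are also given without these arrays below, while marker and pathway lists are given with all arrays only. The 3' over 5' signal ratio of Gapdh lay between 0.71 and 0.788 on exercised and between 0.694 and 0.796 on sedentary arrays.

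Across the proteasome, most subunit genes kept within a narrow band. Of the 47 members tested, 2 rose in exercised fat and 0 fell by limma's moderated test after Benjamini-Hochberg adjustment over all genes. The risen genes were Psmd4 and Psme4. Over all genes tested 5.53% passed, 4.0% higher and 1.53% lower, so the members' share is close to that background. Taking an unadjusted p under 0.05 instead, 8 members were higher and 3 lower, where 11.3% of all genes were higher and 10.5% lower. The log2 differences between exercised and sedentary arrays ran from -0.37 for Psmb9 to 0.45 for Psme4, with 23 above and 24 below 0 and a median of -0.01, beside -0.03 for all genes. For no member did the 2 groups of arrays fail to overlap, against 2.68% of all genes.

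**Figure D1:**
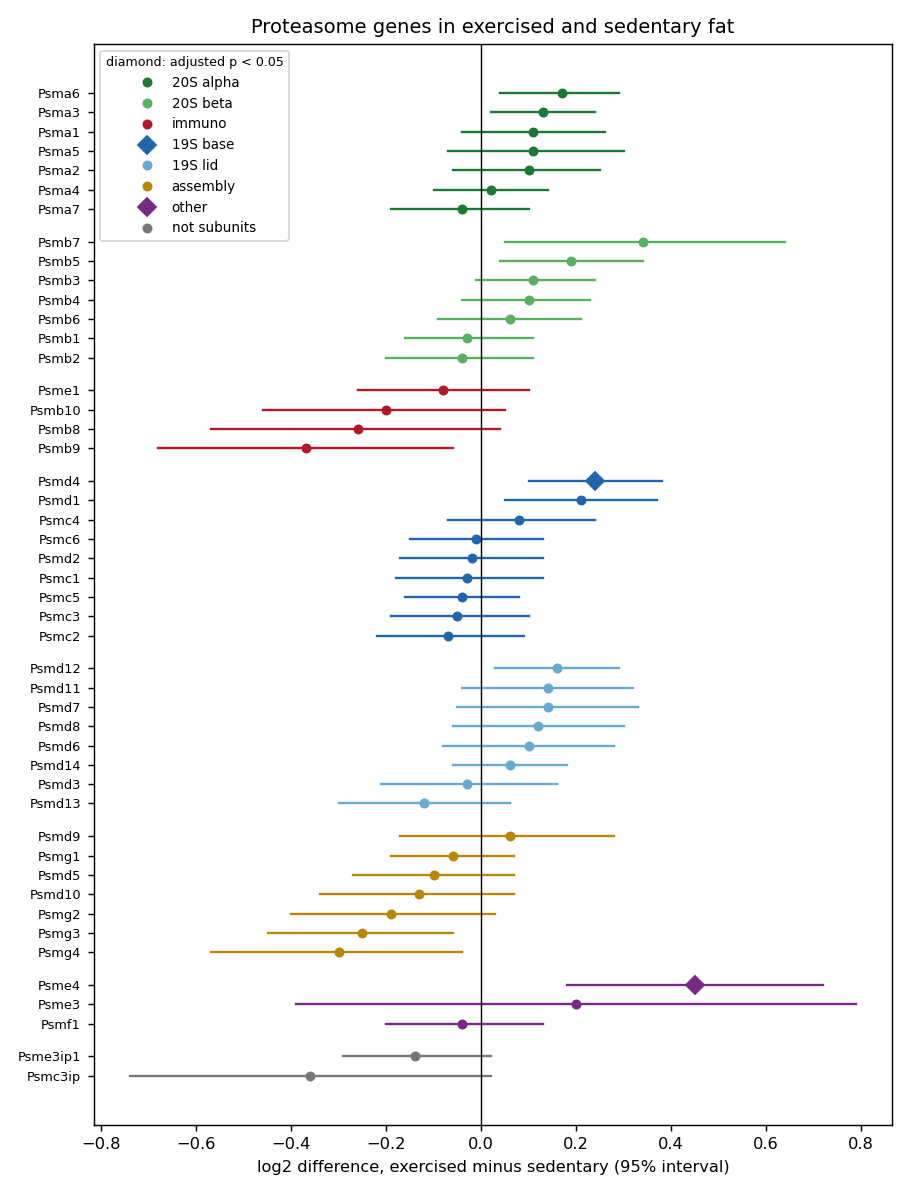
Log2 difference, exercised minus sedentary, of each of the 47 tested members with its 95% interval (n = 7 arrays per group), grouped by place in the complex; diamonds mark Psmd4 and Psme4, which passed the threshold. Core and lid genes lie mostly right of 0, immunoproteasome genes and assembly chaperones mostly left, and most intervals cross 0.

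Psmd4 encodes a ubiquitin receptor of the 19S cap, known as RPN10 or S5a. Its signal was 7768.1 at the lowest, 8460.5 at the median and 9609.7 at the highest on exercised arrays, and 6349.4, 7431.7 and 7886.3 on sedentary arrays. All 7 exercised arrays lay above the sedentary median, and the groups overlapped only in the narrow range between the lowest exercised and the highest sedentary array. The mean was 8605 ± 615 on exercised arrays and 7278 ± 485 on sedentary arrays (SD, n = 7 each), a log2 difference of 0.24 (SE 0.06, 95% interval 0.10 to 0.38; limma adjusted p = 0.0439). The other Psmd4 probe sets past the filter gave 0.17 and 0.14. The call sat at the edge of the threshold: it was kept in 9 of 27 alternative settings, with adjusted p from 0.0365 to 0.28, and lost when any 1 of 10 arrays was left out, at adjusted p up to 0.0909 (exercised arrays 1, 3, 5, 6 and 7, and sedentary arrays 1, 3, 4, 5 and 6). The difference stayed between 0.18 and 0.28 in all 27.

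Psme4 encodes PA200, an activator that caps the 20S core without ATP and is known for its part in the breakdown of acetylated histones. Its signal was 5265.4 at the lowest, 6353.0 at the median and 10071.6 at the highest on exercised arrays, and 4883.8, 5202.5 and 5704.7 on sedentary arrays. All exercised arrays were above the sedentary median, but they were far more spread: exercised arrays 3, 6 and 7 gave 8903.3, 10071.6 and 8154.1, and the other 4 gave 5265.4 to 6353.0. The mean was 7274 ± 1780 on exercised and 5185 ± 262 on sedentary arrays (SD, n = 7 each), a log2 difference of 0.45 (SE 0.13, 95% interval 0.18 to 0.72; limma adjusted p = 0.0492).

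The exercised arrays highest for Psme4 were also high in skeletal muscle RNA, though not every array followed. All 20 muscle markers had positive differences and none passed the adjusted threshold by limma. Before adjustment 16 were higher at p under 0.05, where 11.3% of all genes were. The median log2 difference of the markers was 2.75. Their summed signal was 13200 to 893000 on exercised and 10700 to 334000 on sedentary arrays, and no signal in the data was 0. The muscle averages of exercised arrays 3, 6 and 7 were 15.01, 15.25 and 13.85, and that of exercised array 2, where Psme4 gave 6225.9, was 14.06. Exercised arrays 1 and 4 had low muscle averages of 9.2 and 8.78, and their Psme4 signals of 6353.0 and 5942.7 were above every sedentary array. Exercised array 5, with a muscle average of 12.24, gave 5265.4, and sedentary array 3, with 13.16, gave 5209.1. With the muscle average as a covariate the Psme4 difference was 0.29 (limma adjusted p = 0.344). That of Psmd4 was 0.25 (adjusted p = 0.156) in the same fit. In such bulk tissue, more cells of a type and more RNA per cell cannot be told apart. The part of muscle RNA in the Psme4 and Psmd4 differences was not otherwise tested. The other Psme4 probe sets past the filter all had positive differences, from 0.11 to 0.36. Psme4 passed in 11 of 27 alternatives, with adjusted p from 0.0247 to 0.344, and leaving out any 1 of 11 arrays ended the call, at adjusted p up to 0.101 (exercised arrays 1, 3, 6 and 7, and each of the 7 sedentary arrays). Without sedentary arrays 5 and 7 the differences were 0.45 for Psme4 (adjusted p = 0.0809) and 0.21 for Psmd4 (adjusted p = 0.0666).

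**Figure D2:**
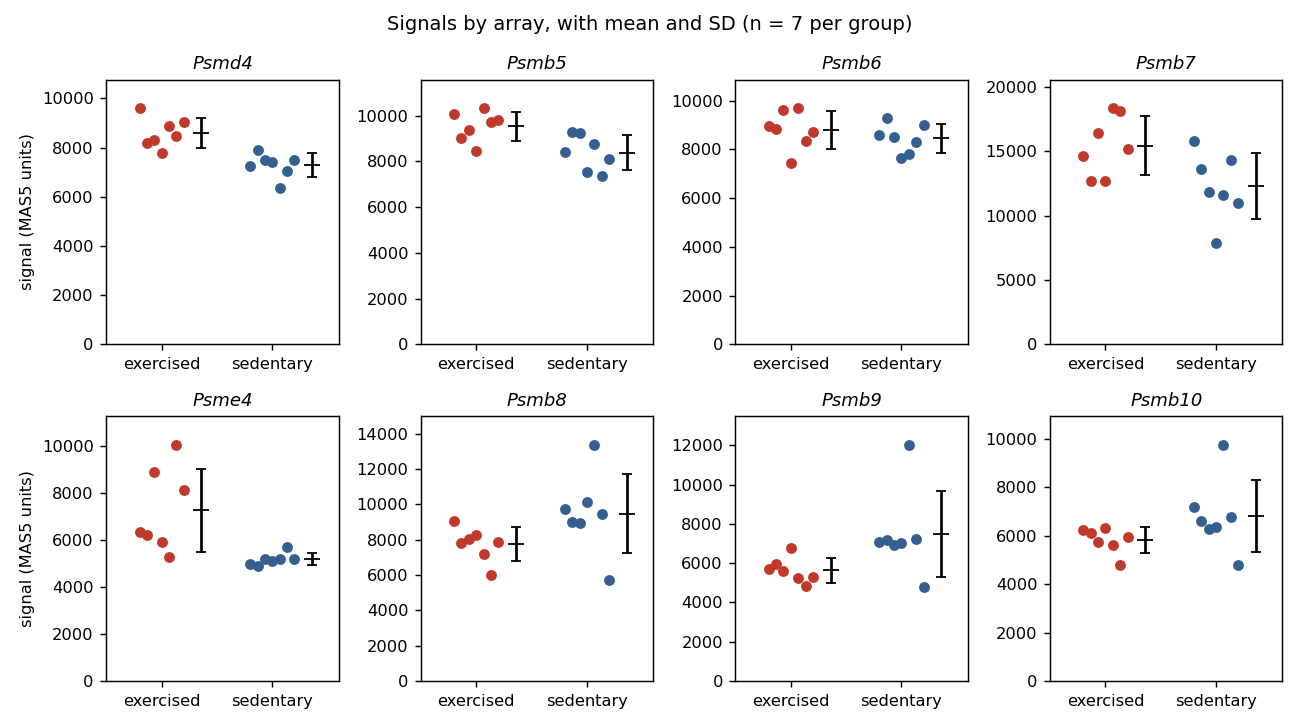
Signal of Psmd4, Psme4 and the 6 catalytic subunits on each array (points, MAS5 signal units, axis from 0), exercised left of sedentary, with mean and SD (n = 7 per group). Psme4 is high on 3 exercised arrays, while Psmb8, Psmb9 and Psmb10 are highest on sedentary array 5 and lowest on sedentary array 7.

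In the 20S core no gene passed the threshold, but most differences were small and positive. Of the 14 alpha and constitutive beta genes tested, 11 had a positive difference, with a median of 0.10, while 45.0% of all genes had one. The size of that median depended on the scaling and the probe sets: it was 0.03, with 10 of 14 positive, under quantile normalization and 0.05 with the mean of all probe sets. Sedentary array 4 had the lowest core average of all arrays, 13.40, where the other sedentary arrays had 13.51 to 13.63. A core median without that array is not given here. By limma 0 core genes passed after adjustment and 4 were higher at an unadjusted p under 0.05 (Psma3, Psma6, Psmb5 and Psmb7). Over all genes 11.3% were higher at that p. The 95% intervals of all 14 lay between -0.20 and 0.64, so that differences over 1.56-fold were outside them for every core gene.

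Among the alpha genes, which form the outer rings and gate the barrel, 6 of 7 were positive with a median of 0.11. Psma6 was highest at 0.17 (SE 0.06; limma adjusted p = 0.116), with exercised arrays at 19693.6, 21572.1 and 23272.8 and sedentary arrays at 16721.7, 19130.5 and 20146.3 (lowest, median, highest). Its probe set may also bind related sequences, and its other probe sets past the filter gave 0.06 and 0.15. Psma3 gave 21511.3, 22777.4 and 24695.5 on exercised arrays and 19535.9, 21130.1 and 22197.0 on sedentary arrays, a difference of 0.13 (SE 0.05; adjusted p = 0.159). In both genes every exercised array was above the sedentary median and the groups overlapped. Under quantile normalization the difference was 0.07 for Psma6 (limma adjusted p = 0.461) and 0.02 for Psma3 (adjusted p = 0.807). Psma7, at -0.04, was the alpha gene with a negative difference, and Psma4 was at 0.02.

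Of the 3 constitutive catalytic genes, Psmb7, for the trypsin-like subunit, differed most. It gave 12692.3, 15173.8 and 18352.7 on exercised arrays and 7889.3, 11850.7 and 15809.1 on sedentary arrays, a log2 difference of 0.34 (SE 0.14; limma adjusted p = 0.162). Its spread was wide in both groups, and sedentary array 4 was the lowest of all 14. With the muscle covariate the difference was 0.21 (adjusted p = 0.575). Psmb5, for the chymotrypsin-like subunit, gave 8469.2, 9714.0 and 10337.4 on exercised arrays and 7348.5, 8398.2 and 9311.1 on sedentary arrays, a difference of 0.19 (SE 0.07; adjusted p = 0.139). All 7 exercised arrays lay above the sedentary median for Psmb5 and for Psmb7. Psmb6, for the caspase-like subunit, gave 7446.7, 8842.9 and 9698.9 on exercised arrays and 7632.9, 8525.1 and 9289.3 on sedentary arrays, a difference of 0.06 (SE 0.07; adjusted p = 0.662) with full overlap. Of the non-catalytic beta genes, Psmb1 and Psmb2 were at -0.03 and -0.04, and Psmb3 and Psmb4 at 0.11 and 0.10. Another probe set of Psmb3 gave -0.08 and another of Psmb4 gave -0.09, so their direction depends on the probe set.

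Of the 17 genes of the 19S cap, 1 rose (Psmd4), 9 had a positive and 8 a negative difference, and the median was 0.06. Over all genes 4.0% were called higher by limma and 45.0% had a positive difference. The 6 ATPases of the base, which unfold substrates, stayed between -0.07 (Psmc2) and 0.08 (Psmc4), with 1 positive and 5 negative. By limma none passed, 0 had an unadjusted p under 0.05, and all 6 intervals lay between -0.22 and 0.24. The median of the whole base was -0.02, with 3 positive and 6 negative, and it turned to 0.02, with 6 positive and 3 negative, when arrays were centred on their medians. Psmd2, a scaffold of the base, was at -0.02. Psmd1, the other large scaffold, was at 0.21 (SE 0.07; adjusted p = 0.118), with 6513.4, 7736.8 and 8279.4 on exercised arrays and 5732.4, 6477.6 and 7097.1 on sedentary arrays. Its exercised arrays were all above the sedentary median.

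Of the 8 lid genes, 6 were positive and 2 negative, with a median of 0.11. By limma 0 passed and 1 was higher at an unadjusted p under 0.05. Over all genes 45.0% were positive and 11.3% were higher at that p. The lid median was 0.07 under quantile normalization, with the mean of all probe sets or with array weights, and 0.05 with the muscle covariate. Whether base and lid differ was not tested. The gene with an unadjusted p under 0.05 was Psmd12, a structural subunit, at 0.16 (SE 0.06; adjusted p = 0.143), with 6174.6, 6930.4 and 7293.7 on exercised arrays and 5570.7, 6051.1 and 6697.8 on sedentary arrays. Psmd11, whose product is known to promote 26S assembly, followed at 0.14 (SE 0.09; adjusted p = 0.362), with 10146.8, 10696.6 and 11639.0 on exercised arrays and 7540.3, 9681.6 and 11683.6 on sedentary arrays. Both genes had all exercised arrays above the sedentary median, and both overlapped between groups. Psmd11 was at 0.04 (adjusted p = 0.705) with the mean of its probe sets and at 0.08 (adjusted p = 0.559) without sedentary array 5. Psmd14, the deubiquitinase that removes the ubiquitin chain, was at 0.06 (adjusted p = 0.56), and Psmd13 was lowest at -0.12.

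The immunoproteasome genes lay on the other side of 0. Psmb8, Psmb9, Psmb10 and Psme1, which encodes PA28alpha, all had negative differences in the reported fit and under each scaling. Their median was -0.23 in the reported fit, where 55.0% of all genes were negative. It was -0.26 under quantile normalization and -0.19 with arrays centred on their medians. By limma 0 of the 4 passed, and 1 (Psmb9) was lower at an unadjusted p under 0.05, where 10.5% of all genes were lower. The 95% intervals lay between -0.68 and 0.10.

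Psmb9, which replaces Psmb6, gave 4834.8, 5621.5 and 6791.2 on exercised arrays and 4805.5, 7098.7 and 12037.1 on sedentary arrays. The log2 difference was -0.37 (SE 0.15, 95% interval -0.68 to -0.06; limma adjusted p = 0.16). Psmb8, which replaces Psmb5, gave 6001.3, 7858.9 and 9034.0 on exercised arrays and 5697.8, 9449.8 and 13377.6 on sedentary arrays, a difference of -0.26 (SE 0.14; adjusted p = 0.302), and -0.41 by its other probe set. Psmb10, which replaces Psmb7, gave 4802.2, 5936.2 and 6339.2 on exercised arrays and 4778.0, 6631.1 and 9766.8 on sedentary arrays, a difference of -0.20 (SE 0.12; adjusted p = 0.338). In all 3 genes every exercised array was below the sedentary median, while sedentary array 7 was the lowest and sedentary array 5 the highest of all 14 arrays. Psme1 gave 12054.2, 13573.9 and 14905.4 on exercised arrays and 12477.4, 14013.1 and 18602.0 on sedentary arrays. Its difference was -0.08 (SE 0.08, limma adjusted p = 0.603). The groups overlapped, and sedentary array 5, at 18602.0, lay above all other arrays.

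The values of these genes turned on those sedentary arrays. Without sedentary array 7 the difference of Psmb9 was -0.46 (limma adjusted p = 0.0414), without sedentary array 5 it was -0.24 (adjusted p = 0.194), and without both it was -0.34 (adjusted p = 0.02). Psmb9 thus fell past the threshold in 2 of 27 alternatives. Psmb8 was at -0.17 (adjusted p = 0.478) without sedentary array 5, -0.38 (adjusted p = 0.0505) without sedentary array 7 and -0.29 (adjusted p = 0.0671) without both. Psmb10 was at -0.11 (adjusted p = 0.533), -0.28 (adjusted p = 0.105) and -0.19 (adjusted p = 0.147) in the same settings, and Psme1 at -0.02, -0.11 and -0.04 (adjusted p from 0.404 to 0.902). With the leukocyte average as a covariate Psmb8 was at -0.16 (adjusted p = 0.479), Psmb10 at -0.13 (adjusted p = 0.53) and Psme1 at -0.05 (adjusted p = 0.778). Apart from fits with 1 array left out, Psmb9 was between -0.38 and -0.26 in every alternative, this covariate included. Its limma adjusted p was at most 0.46.

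Because an immunoproteasome subunit takes the place of its constitutive counterpart, the log2 ratio of each pair was compared between groups within arrays. The level of such a ratio depends on the probes and is not a ratio of molecules, so only its difference between groups is read. Psmb8 over Psmb5 averaged -0.31 ± 0.23 on exercised arrays and 0.14 ± 0.37 on sedentary arrays (SD, n = 7 each), a difference of -0.45 (SE 0.17; exact two-sided permutation p = 0.0233, 0.035 after Benjamini-Hochberg adjustment over the 3 pairs). All 7 exercised arrays were below the sedentary median. Psmb9 over Psmb6 averaged -0.64 ± 0.25 on exercised and -0.22 ± 0.45 on sedentary arrays, a difference of -0.42 (SE 0.19; exact permutation p = 0.0361, adjusted 0.0361), with 6 of 7 exercised arrays below the sedentary median. Psmb10 over Psmb7 averaged -1.39 ± 0.33 on exercised and -0.84 ± 0.40 on sedentary arrays, a difference of -0.55 (SE 0.20; exact permutation p = 0.0134, adjusted 0.035), again with 6 of 7 below. Both genes of a pair enter its ratio. The log2 differences were -0.26 for Psmb8 and 0.19 for Psmb5, and -0.37 for Psmb9 and 0.06 for Psmb6. Psmb10 was at -0.20 and Psmb7 at 0.34, so the constitutive gene differed more in that pair. All 3432 assignments of arrays to groups were counted, which allow a p of 0.000583 at the smallest. The 3 pairs come from the same arrays and are not independent of each other, and the groups overlapped in each.

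The 3 ratios thus fell in exercised fat, and the calls depended on single arrays and on whether a marker average was used as a covariate. They were adjusted over the 3 pairs only, and none of the 6 genes passed adjustment over all genes. Ratios of other gene pairs were not tested, so no background share of ratios is known. By limma, 21.8% of all single genes had an unadjusted p under 0.05. Without sedentary array 5 the differences were -0.37, -0.28 and -0.45 for Psmb8, Psmb9 and Psmb10 over their counterparts, and none passed (exact permutation p adjusted over the pairs 0.0638, 0.0775 and 0.0638). Without sedentary array 7 they were -0.56, -0.54 and -0.61 (adjusted 0.00612, 0.00612 and 0.00932), and without both arrays -0.49, -0.39 and -0.50 (adjusted 0.0152, 0.0189 and 0.0253). Exercised arrays 5 and 6 and sedentary array 4 each also ended all 3 calls when left out, with adjusted exact permutation p of 0.0624 to 0.0763. Sedentary array 1 or 6 ended those of Psmb8 and Psmb9 (adjusted 0.0519 and 0.0571), and exercised array 1, 2, 3 or 7 that of Psmb9 (adjusted 0.0565 to 0.0699).

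**Figure D3:**
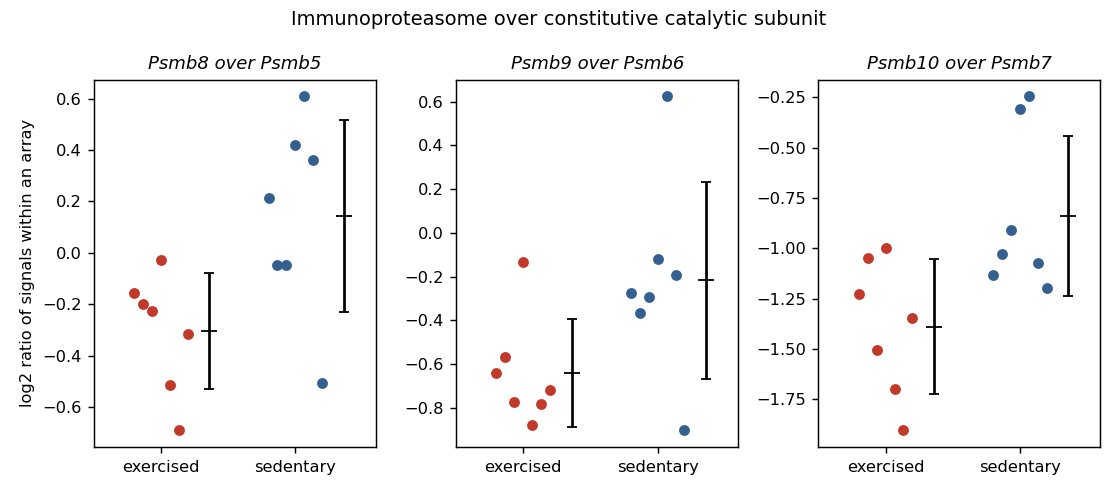
Log2 ratio of each immunoproteasome subunit over the constitutive subunit it replaces, 1 point per array, exercised left of sedentary, with mean and SD (n = 7 per group). Exercised means are lower by 0.45, 0.42 and 0.55. In every pair sedentary array 7 lies within or below the range of the exercised points, and other sedentary arrays lie within it.

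Leukocyte, macrophage and interferon-response genes also had negative differences, and array by array they followed the immunoproteasome only in part. All 14 leukocyte and lymphocyte markers tested had negative differences (median -0.63), 0 passing by limma either after adjustment or at an unadjusted p under 0.05, and their summed signal was 17900 to 120000 on exercised and 23800 to 214000 on sedentary arrays. All 14 macrophage markers were negative too (median -0.31), with 1 called lower by limma and summed signals of 133000 to 182000 on exercised and 143000 to 228000 on sedentary arrays. Of 21 interferon-response genes all were negative (median -0.44), 0 passed and 8 were lower at an unadjusted p under 0.05. Over all genes 55.0% were negative, 1.53% were called lower by limma and 10.5% were lower before adjustment. Sedentary array 5, highest for Psmb8, Psmb9 and Psmb10, had the highest averages of all 3 lists (13.29, 13.64 and 13.19). Sedentary array 7, lowest for the same genes, had a leukocyte average of 9.72, but its macrophage average of 12.87 and interferon-response average of 11.50 were within the range of the other arrays. Exercised array 5, with a leukocyte average of 9.37, had an immunoproteasome average of 12.87, inside the exercised range of 12.66 to 13.03. Exercised array 7 had a leukocyte average of 10.51. The remaining exercised arrays had 11.87 to 12.59, beside 12.23 to 12.74 on sedentary arrays 1, 2, 3, 4 and 6. Interferon-response averages were 11.19 to 11.77 on exercised arrays and 11.50 to 12.08 on sedentary arrays other than array 5. The list differences thus rest in part on single arrays. With the leukocyte average as a covariate the pair differences were -0.33, -0.28 and -0.45 (permutation p adjusted over the pairs 0.0568, 0.0763 and 0.0568), and with the muscle average they were -0.36, -0.33 and -0.38 (adjusted 0.118 each). The part of these cells in the result was not otherwise tested.

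**Figure D4:**
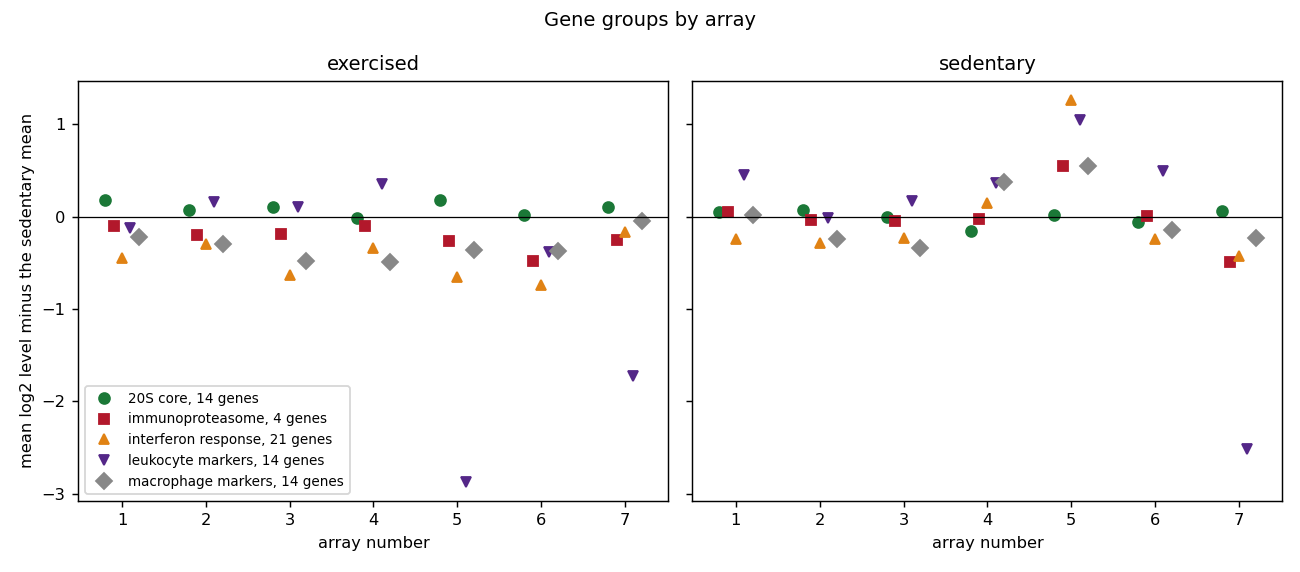
Mean log2 level of 5 gene groups on each array, minus the mean of the sedentary arrays, for exercised arrays in the left panel and sedentary arrays in the right panel (1 symbol per group and array). The 20S core stays near 0, while the immunoproteasome, interferon-response and macrophage groups are highest on sedentary array 5, and leukocyte markers are lowest on exercised arrays 5 and 7 and sedentary array 7.

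The assembly chaperones, which build the rings and the base and leave the finished complex, mostly had negative differences. Of 7, 6 had a negative difference, with a median of -0.13, and by limma 0 passed while 2 were lower at an unadjusted p under 0.05. Over all genes 55.0% had a negative difference and 10.5% were lower at that p. Psmg3, which pairs with Psmg4 to help place alpha subunits, gave 1296.9, 1378.9 and 1541.7 on exercised arrays and 1402.5, 1688.7 and 2123.7 on sedentary arrays, a difference of -0.25 (SE 0.09; adjusted p = 0.123). Psmg4 gave 1181.0, 1346.4 and 1508.0 on exercised arrays and 1175.6, 1598.8 and 2349.9 on sedentary arrays, a difference of -0.30 (SE 0.12; adjusted p = 0.172). For both partners all exercised arrays were below the sedentary median and sedentary array 5 was highest. Without that array Psmg3 was at -0.20 (limma adjusted p = 0.19) and Psmg4 at -0.22 (adjusted p = 0.265), and without sedentary array 7 they were at -0.30 (adjusted p = 0.0544) and -0.38 (adjusted p = 0.0501). Psmg1 and Psmg2, the other pair of alpha-ring chaperones, were at -0.06 and -0.19, and the base chaperones Psmd5 and Psmd10 at -0.10 and -0.13. Psmd9, also a base chaperone, was at 0.06, but its other probe set past the filter gave -0.28.

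Of the remaining regulators, Psme3, for the nuclear activator PA28gamma, gave 1477.0, 1981.9 and 2934.7 on exercised arrays and 819.6, 1655.6 and 3280.6 on sedentary arrays. The difference was 0.20 (SE 0.28, 95% interval -0.39 to 0.79; limma adjusted p = 0.699), so that these arrays leave its direction undetermined. It was at 0.02 without sedentary array 4 and at 0.34 without sedentary array 5. Psmf1, for the inhibitor PI31, was at -0.04 (SE 0.08; adjusted p = 0.815), and its other probe sets gave -0.24, -0.02 and -0.34. The name-matched Psmc3ip and Psme3ip1 were at -0.36 (adjusted p = 0.257) and -0.14 (adjusted p = 0.284), and neither passed.

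**Figure D5:**
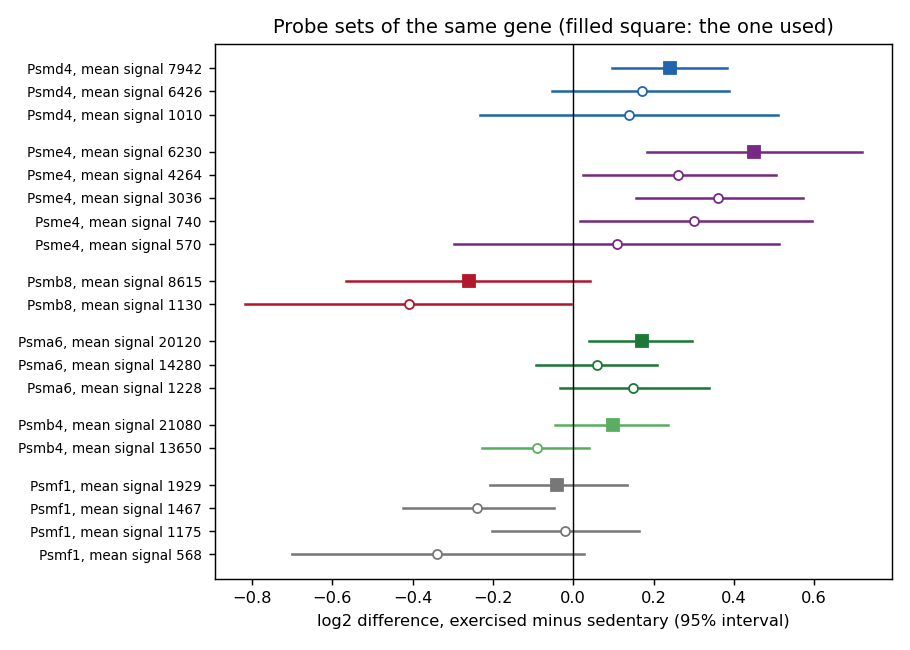
Log2 difference, exercised minus sedentary, with 95% interval for each probe set past the filter of 6 members (n = 7 arrays per group), the filled square being the probe set used and the label its mean signal. All Psmd4, Psme4 and Psmb8 probe sets keep 1 direction, while those of Psmb4 lie on both sides of 0.

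Probe sets of the same gene often disagreed where differences were small. Among 22 members with several probe sets past the filter, 39 further probe sets were measured, of which 26 had the sign of the one used and 13 the opposite. When all 27027 probe sets past the filter were tested as separate features, 0 probe sets of the members passed by limma, the nearest being one of Psme4 at 0.36 (adjusted p = 0.0501).

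Genes around the proteasome showed no called change. Of 24 listed genes for ubiquitin, ubiquitin receptors and associated factors, 16 were tested and 0 passed by limma (1 had an unadjusted p under 0.05), with a median of 0.05. Ube3c, a ligase that works on the cap and extends ubiquitin chains, was at 0.24 (SE 0.08; adjusted p = 0.0898), with 1867.6, 1938.7 and 2180.8 on exercised arrays and 1477.5, 1592.4 and 2046.3 on sedentary arrays, but 0.07 (adjusted p = 0.628) with the mean of its probe sets. Bag6, a chaperone that hands mislocalized proteins to the proteasome, was at 0.21 (SE 0.12; adjusted p = 0.291). Pomp, the maturation factor that places the beta ring, was at -0.07 (adjusted p = 0.524); it was chosen after its value was seen.

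Of 14 listed genes for transcriptional control of the proteasome, 13 were tested and 0 passed by limma, and before adjustment 2 were higher and 1 lower at p under 0.05. Nfe2l1 gave 9378.2, 10600.1 and 11903.6 on exercised arrays and 7107.7, 9243.9 and 10669.5 on sedentary arrays. The difference was 0.24 (SE 0.09; adjusted p = 0.161), and the groups overlapped. Nfyb, a subunit of the factor that binds CCAAT, was at -0.30 (SE 0.11; adjusted p = 0.144). Nfe2l2 (NRF2), chosen after its value was seen, was at 0.13 (adjusted p = 0.405).

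Of 9 muscle ubiquitin ligase and autophagy genes 0 passed by limma, with 1 at an unadjusted p under 0.05. That gene was Fbxo32, the ligase atrogin-1 of wasting muscle, at 0.58 (SE 0.17; adjusted p = 0.0639), beside the muscle markers given above. Fbxo30 was at 0.23 (adjusted p = 0.289). Trim63, the muscle ligase MuRF1, had the highest difference of that list at 2.14, in a list whose intervals reached 4.58.

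In antigen processing, where immunoproteasome products go, 11 of 13 listed genes were tested, 0 passed by limma and 1 was lower at an unadjusted p under 0.05, with a median of 0.00. Pdia3, a chaperone of MHC class I loading, was at -0.29 (SE 0.09; adjusted p = 0.0757), with 13519.5, 15380.6 and 17304.3 on exercised arrays and 16355.2, 18199.6 and 24199.2 on sedentary arrays, and at -0.13 (adjusted p = 0.427) with the mean of its probe sets. Tapbp, for tapasin, was at -0.16 (SE 0.08; adjusted p = 0.265). Tap1, which shares its promoter with Psmb9 as shown above and was chosen after its value was seen, gave 2527.5, 3639.7 and 5183.1 on exercised arrays and 3106.1, 4256.1 and 8418.7 on sedentary arrays, a difference of -0.30 (SE 0.19; adjusted p = 0.375). Tap2 and B2m, chosen in the same way, were at 0.01 (adjusted p = 0.974) and 0.03 (adjusted p = 0.776). Among the interferon-response genes, Ifit3 was at -0.68 (SE 0.20; adjusted p = 0.0665) and Stat2 at -0.56 (SE 0.20; adjusted p = 0.12).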

How the data were processed

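Total RNA from frozen subcutaneous white fat was labelled with biotin and hybridised to Affymetrix arrays (per the labels' protocols). What the authors deposited is linear microarray intensity for 45101 probe sets, made with MAS5 of unstated version and settings (per the submitters' processing notes). Each array had a trimmed mean of 1500 (2% trimmed per end), a scaling that removes any difference in total RNA, and array medians were 531.3 to 617.4. Detection calls and scan batches were not used here, no columns were identical (highest correlation between arrays 0.971), and 7 arrays per group limit the precision.

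The members and gene lists were chosen with earlier results of these data known. Symbols came from the platform annotation: 34945 probe sets had 1 symbol, 932 several and 9160 none, and 34741 symbols were matched through Entrez identifiers to RefSeq on GRCm38.p6. Values were taken as log2(signal + 46.7), the 10th percentile of all values, a scale that understates changes of weak genes. Control probe sets (64) and those with a mean under 389.7, the 40th percentile, were left out. Each gene was represented by its probe set of highest mean. Tests used limma 3.58.1 (R 4.3.3; eBayes with trend, two-sided), and p-values were adjusted over 12945 genes by Benjamini-Hochberg, with a threshold of 0.05. Ratios of the 3 catalytic pairs were tested by an exact permutation test, with covariates by permuting residuals. The fit and the permutation test were tested on simulated data.

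Members given with full statistics were those past the threshold, the immunoproteasome genes, Psmb5, Psmb6, Psmb7, the 2 with the smallest p in each subgroup, and, in each pathway list, the 2 with the smallest p and Nfe2l1. Alternatives changed scaling, pseudocount, filter, probe set rule, variance model, array weights, pairing, marker covariates and single arrays; leaving out sedentary arrays 5 and 7 was added after seeing the data.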

Additional observations from a re-analysis of the deposited data

Results flagged for a closer look

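Dixon's test of the highest and lowest array in each group of 7 marked 6 of 54 sets of values, where chance marks about 1 in 20. On the log2 scale, exercised array 6 was lowest for Psmb10 at 12.24, next to 12.47. Exercised array 4 was highest for the ratio of Psmb9 over Psmb6 at -0.13, next to -0.57. Sedentary array 4 was lowest for Psma6 at 14.03, next to 14.19, and for the average of the constitutive beta ring at 13.16, next to 13.35. Sedentary array 5 was highest for Psme1 at 14.19, next to 13.85. Sedentary array 6 was highest for Psme4 at 12.49, next to 12.36.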

How the results depend on the processing

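All 17 members given with full statistics and the 3 pair ratios kept their direction in every alternative run; the calls did not. Over all genes 716 passed, against 161 with a replicate block, 208 with the muscle covariate and 402 to 853 when 1 array was left out. The count of members called higher, 2 as reported, was 1 under quantile normalization, the mean of all probe sets and the leukocyte covariate. It was 0 with no filter, no variance trend, the replicate block, the muscle covariate, or without sedentary arrays 5 and 7, and 0 to 2 when 1 array was left out. Members called lower, and immunoproteasome genes called, numbered 0 as reported, 1 (Psmb9) without sedentary arrays 5 and 7, and 0 to 1 with 1 array left out. For the cap base the count of 1 was 0 under quantile normalization, no filter, the mean of probe sets, no variance trend, the block, either covariate, or without sedentary arrays 5 and 7. For the other activators it was 0 with no filter, no variance trend, the block, the muscle covariate, or without sedentary arrays 5 and 7. Both were 0 to 1 with 1 array left out. The pair differences were -0.36, -0.33 and -0.38 with the muscle covariate and -0.33, -0.28 and -0.45 with the leukocyte covariate, and none passed. With the replicate block those of Psmb8 and Psmb9, -0.45 and -0.42, were lost (both adjusted exact p = 0.0625) while that of Psmb10 passed. With 1 array left out they were -0.56 to -0.37, -0.54 to -0.28 and -0.61 to -0.45. The causes were not tested. Deviations of same-numbered arrays correlated at -0.43 to 0.38, and 3 of 7 exercised arrays correlated best with their own number. So few and so scattered correlations cannot decide whether the numbers pair the arrays. The pair tests have no variance trend and were not run with array weights.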
